A study of Mus musculus with 8 samples.

Results

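The comparison described here is 10-day-old against 5-day-old PD-1- CD4+ T cells of the mouse liver, 2 libraries against 2, taken from the 8 libraries of the series by their labelled age and PD-1 status. PD-1 is the inhibitory receptor encoded by Pdcd1. All mice, at both ages and in every library, were deficient in Aire, the thymic regulator that lets medullary epithelial cells display tissue antigens, on a C57BL/6 background with a GFP reporter of Foxp3, so no Aire-sufficient animal enters the comparison. The cells were live (DAPI-), CD45+, TCRb+, CD4+ and without GFP from Foxp3, the factor of regulatory T cells, and 1000 sorted cells made each library. The PD-1- libraries are replicates 2 and 3 at 5 days and replicates 1 and 2 at 10 days. Values for single libraries are given in that order throughout. The 4 PD-1+ libraries of the same sorts entered the estimate of spread and the test of whether the age effect differed between the populations. The age effect within PD-1+ cells is given only beside that test. The table lists 52997 gene symbols, and 11490 of them passed the filter on low counts and were tested. Because no label says whether the libraries are from separate animals or litters, the p-values reflect the variation among these libraries alone, which may be technical in part.

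Naive CD4+ T cells leave the thymus in large numbers around birth and settle in lymphoid organs and in tissues, including the liver, which is still a blood-forming organ at that stage. T cells answer type I interferon and interferon-gamma through JAK kinases and STAT factors, which switch on antiviral genes, the guanylate-binding proteins and immunity-related GTPases that attack vacuoles of intracellular microbes, and the MHC class I pathway. The AP-1 factors (Fos and Jun families) and other immediate-early genes are transcribed soon after antigen receptor signals, stress or tissue handling, and several of them, such as the phosphatase Dusp1, switch the same signals off again.

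Library totals were 3019551, 1706991, 2832550 and 1473216 counts, so each age had a deeper and a shallower library. Between 17693 and 20424 symbols were detected per library. The Spearman correlation over tested genes was 0.958 between the 5-day and 0.962 between the 10-day replicates, against 0.948 to 0.959 between libraries of different age. The sort marker Pdcd1 had 5, 1, 4 and 3 counts and Foxp3 17, 10, 32 and 15. All 18 T cell identity genes on the list were tested, and Cd4 had 711, 696, 935 and 716 CPM (counts brought to a common library size, with TMM scaling). Of the other 17, only Cd5 passed the test described below. Cd8a had 5.18, 0.568, 4.21 and 1.95 CPM, but Cd8b1, which encodes the other CD8 chain, had 42.4, 38.0, 23.3 and 36.4 CPM. Aire, which T cells transcribe little, had 0, 0, 0 and 1 counts, which leaves the genotype untested. The library of 5-day replicate 3 came from a male, with 672 counts from Y-linked genes and 5 of Xist, the RNA that silences an X chromosome in females. Y-linked genes had 0 counts and Xist 915 to 1842 counts in the other 3. Sex was therefore partly mixed with age, and values without that library, called the male library below, are given where they matter. In those fits the remaining PD-1- libraries were all from females. The PD-1+ library of 5-day replicate 3 also came from a male (601 Y-linked counts, 1 of Xist) and stayed in their estimate of spread. The first principal component of the 4 libraries held 41.7% of the variance and set 5-day replicate 3 (44.6) apart from 5-day replicate 2 (7.98) and from 10-day replicates 1 and 2 (-20.4 and -32.2).

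Few genes separated the ages beyond the spread between libraries. The 3 smallest p-values belonged to Ppp1r15a, Dusp1 and Junb, which were higher at 10 days, and the smallest among lower genes to Irgm2, an interferon-inducible GTPase. With edgeR's quasi-likelihood test and Benjamini-Hochberg adjustment over all 11490 genes, 31 genes had an adjusted p below 0.05, which is 0.270% of those tested, and are called changed. Of these, 17 rose (0.148%) and 14 fell (0.122%), 12 and 9 of them by 2-fold or more. In all 31 the libraries of the ages did not overlap, a pattern that 19.2% of all tested genes showed upward and 20.7% downward. At an unadjusted p below 0.05 there were 530 higher genes (4.61%) and 689 lower genes (6.00%), and 50.9% of all tested genes had a log2 fold change below 0. Every count of list members at that level or below 0 given later is to be read beside these shares. The median log2 fold change over all tested genes was -0.01. The number of called genes depended on which libraries were used, from 5 without 10-day replicate 2 and 8 without 10-day replicate 1 to 41 without 5-day replicate 2 and 90 without 5-day replicate 3, when the age with 1 library left was assumed to vary like the others. Of the 31 genes, 4, 6, 14 and 27 were among the genes called in those 4 fits, in the same order. Of the 31 genes, 3 stayed called under all 13 alternative settings, namely Ppp1r15a, Dusp1 and Junb.

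**Figure D1:**
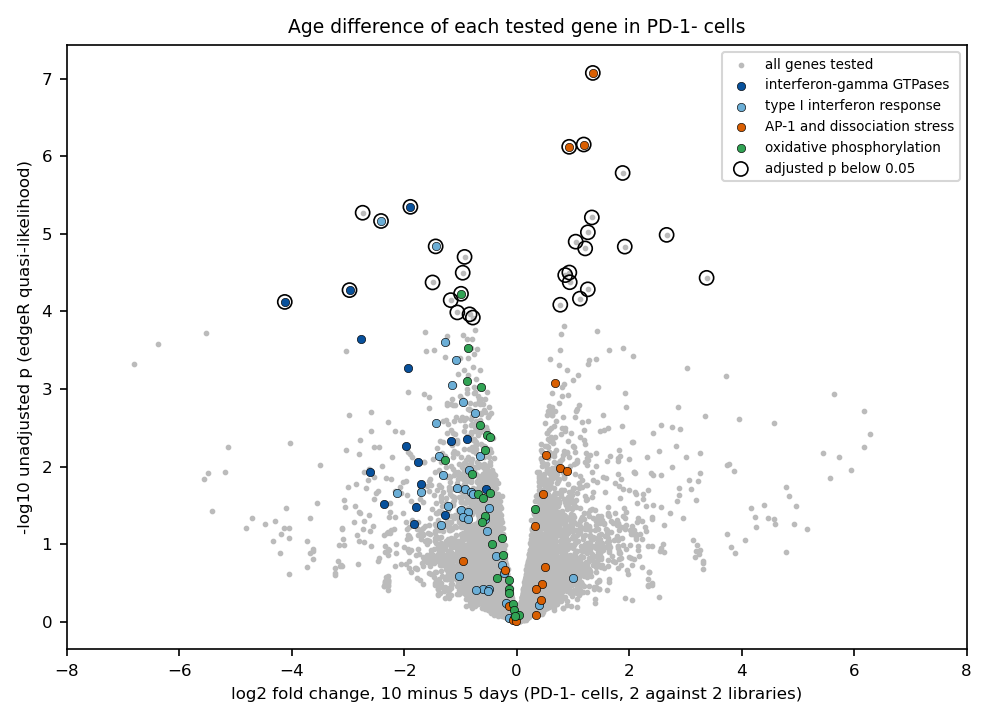
Each point is 1 of the tested genes in PD-1- cells, with the log2 fold change of 10 minus 5 days on the x axis and -log10 of the unadjusted p of edgeR's quasi-likelihood test on the y axis. Black rings mark the 31 called genes, colours mark members of 4 gene lists, and 4 genes lie outside the plotted range of -8 to 8. Interferon list members (blue) lie mostly to the left and the called AP-1 list members (orange) are the 3 highest points.

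Ppp1r15a, Dusp1 and Junb rose at 10 days, and the gaps between the ages were wide against those within them. Ppp1r15a, which encodes the phosphatase subunit GADD34 that reverses the block of translation in the stress response (chr7:45522916-45526268, minus strand), had 228, 200 and 559, 538 CPM. Both 10-day libraries were above both 5-day libraries, and the replicates of each age were close together (log2 fold change 1.35 ± 0.15 SE, edgeR adjusted p = 0.000966). Dusp1, a phosphatase that inactivates the MAP kinases p38 and JNK (chr17:26505590-26562128, minus strand), had 178, 142 and 371, 362 CPM. Its libraries were ordered the same way (1.19 ± 0.15, edgeR adjusted p = 0.00289). Junb, an AP-1 subunit (chr8:84974484-84978718, minus strand), had 1279, 1349 and 2444, 2578 CPM. The gap between the ages again exceeded that within them (0.93 ± 0.12, edgeR adjusted p = 0.00289). The annotation places Tulp2 over Ppp1r15a, Ergic1 and Gm8225 over Dusp1 and Prdx2 over Junb on the other strand, and 2 unnamed models over Dusp1 on the same strand, and the strand setting of the counting is not known, so part of these counts may belong to the partner gene.

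Promoters of Ppp1r15a and Dusp1 are shown because each holds the full cyclic AMP response element (CRE), the site to which CREB and ATF factors are known to bind. They are RefSeq sequences on GRCm38.p6, 250 bases before to 50 bases after the annotated start, written 5′ to 3′ on the gene's strand, and the capitals mark TGACGTCA, the CRE searched on both strands. The positions are chr7:45526219-45526518 (minus strand) for Ppp1r15a and chr17:26508423-26508722 (minus strand) for Dusp1.
Ppp1r15a: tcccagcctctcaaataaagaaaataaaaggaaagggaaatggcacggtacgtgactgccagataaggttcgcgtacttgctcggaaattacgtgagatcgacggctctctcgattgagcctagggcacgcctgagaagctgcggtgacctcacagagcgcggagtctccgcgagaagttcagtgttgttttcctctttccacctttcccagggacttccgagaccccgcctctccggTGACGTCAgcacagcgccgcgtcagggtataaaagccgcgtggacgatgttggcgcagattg
Dusp1: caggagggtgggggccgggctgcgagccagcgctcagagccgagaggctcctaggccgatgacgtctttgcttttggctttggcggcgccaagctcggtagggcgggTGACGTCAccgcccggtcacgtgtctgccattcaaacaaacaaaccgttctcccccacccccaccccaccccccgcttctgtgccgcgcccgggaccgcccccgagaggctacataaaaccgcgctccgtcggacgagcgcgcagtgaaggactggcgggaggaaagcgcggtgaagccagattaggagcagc

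In Ppp1r15a the element lies at -12 to -5 and in Dusp1 at -143 to -136, counted back from the start with the base before it as -1. It occurred in 3 of the 13 called higher genes with a promoter entry (Ppp1r15a, Dusp1 and Arl4d), against 317 of 8355 tested genes with an entry (3.79%) and 1.79% of all 32851 promoters, and in 1 of the 8 called lower genes with an entry, Mcm5. The AP-1 site TGANTCA was found in 1 of those 13 genes and in 5.65% of tested genes with an entry. A match describes the letters of the window and shows neither binding nor use of the site.

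Of 19 AP-1 and dissociation-response genes on the list, all tested, these 3 rose, 0 fell and 16 did not pass the test. The median log2 fold change of the list was 0.45, beside -0.01 over all genes. At an unadjusted p below 0.05, 8 were higher (4.61% of all genes were) and 0 lower. The median ran from 0.32 without 5-day replicate 3, with 5 higher at that level, to 0.89 without 5-day replicate 2, with 9 higher, and 5 were higher and 1 lower without 10-day replicate 1. The others at that level were Gadd45b, which couples stress to MAP kinases (0.69 ± 0.17, edgeR adjusted p = 0.121), Fosl2 (0.51 ± 0.17), Fos (0.77 ± 0.26), Jun (0.89 ± 0.31) and Nfkbiz (0.47 ± 0.19). Members of the same families did not all lean that way: Jund had -0.95 ± 0.65, Atf3 2, 5, 7 and 0 counts, and the RNA-decay factor Zfp36 -0.01 ± 0.27. Summed over the list, the libraries held 3875, 3406, 6095 and 6159 CPM by library total (without TMM), with both 10-day libraries above both 5-day libraries.

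Other called higher genes restrain or shape signals from the antigen receptor. Dusp6, the phosphatase of ERK, had 39.5, 34.6 and 87.8, 85.9 CPM (1.22 ± 0.20, edgeR adjusted p = 0.0126). Cd5, which dampens T cell receptor signals and whose level is known to follow their strength, had 201, 205 and 378, 315 CPM (0.78 ± 0.15, edgeR adjusted p = 0.0337). In both genes the 10-day libraries lay above the 5-day libraries, and Cd5 passed the threshold in 7 of 13 alternative settings. Nr4a2, an orphan nuclear receptor induced by receptor signals, was low, at 10.7, 12.5 and 23.3, 27.3 CPM, and rose by 1.13 ± 0.21 on the log2 scale (edgeR adjusted p = 0.0314). Tob2, an anti-proliferative protein of the BTG/TOB family, had 115, 118 and 211, 213 CPM (0.86 ± 0.15, edgeR adjusted p = 0.0217). Its relative Tob1, a member of the quiescence list, had 157, 101 and 242, 267 CPM without passing the adjusted test (edgeR adjusted p = 0.384).

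Genes of surface receptors and signalling partners formed the rest of the higher group. Cd226, the activating receptor for CD155 and CD112, had 34.0, 42.0 and 85.2, 96.9 CPM (1.27 ± 0.20, edgeR adjusted p = 0.0119). Tagap, a GTPase-activating protein of T cells, had 118, 111 and 258, 214 CPM (1.05 ± 0.17, edgeR adjusted p = 0.0126). Neither gene's ages overlapped. Cxcr3, the receptor for the interferon-induced chemokines CXCL9, CXCL10 and CXCL11, had 7.78, 10.8 and 22.3, 20.8 CPM (1.27 ± 0.23, edgeR adjusted p = 0.0265). Arl4d, a small GTPase of the ARF family, had 3.56, 2.84 and 19.1, 23.4 CPM (2.67 ± 0.43, edgeR adjusted p = 0.0119). Cxcr3 and Arl4d were at low levels, and both lost the call when only the 4 PD-1- libraries were fitted and under limma-voom. Tnfsf14, the cytokine LIGHT, was named after its values were seen because it lies below the level required of named genes: it had 1, 3, 26 and 16 counts (3.38 ± 0.61, edgeR adjusted p = 0.0223). Also higher were Chd3, a remodeller of the NuRD complex (1.34 ± 0.21), Mylip, the ubiquitin ligase that degrades the LDL receptor (0.94 ± 0.17), and Dnajb9, a co-chaperone of BiP in the endoplasmic reticulum (0.94 ± 0.17). The last higher gene, Gm45205, is an unnamed model that overlaps Pycard.

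**Figure D2:**
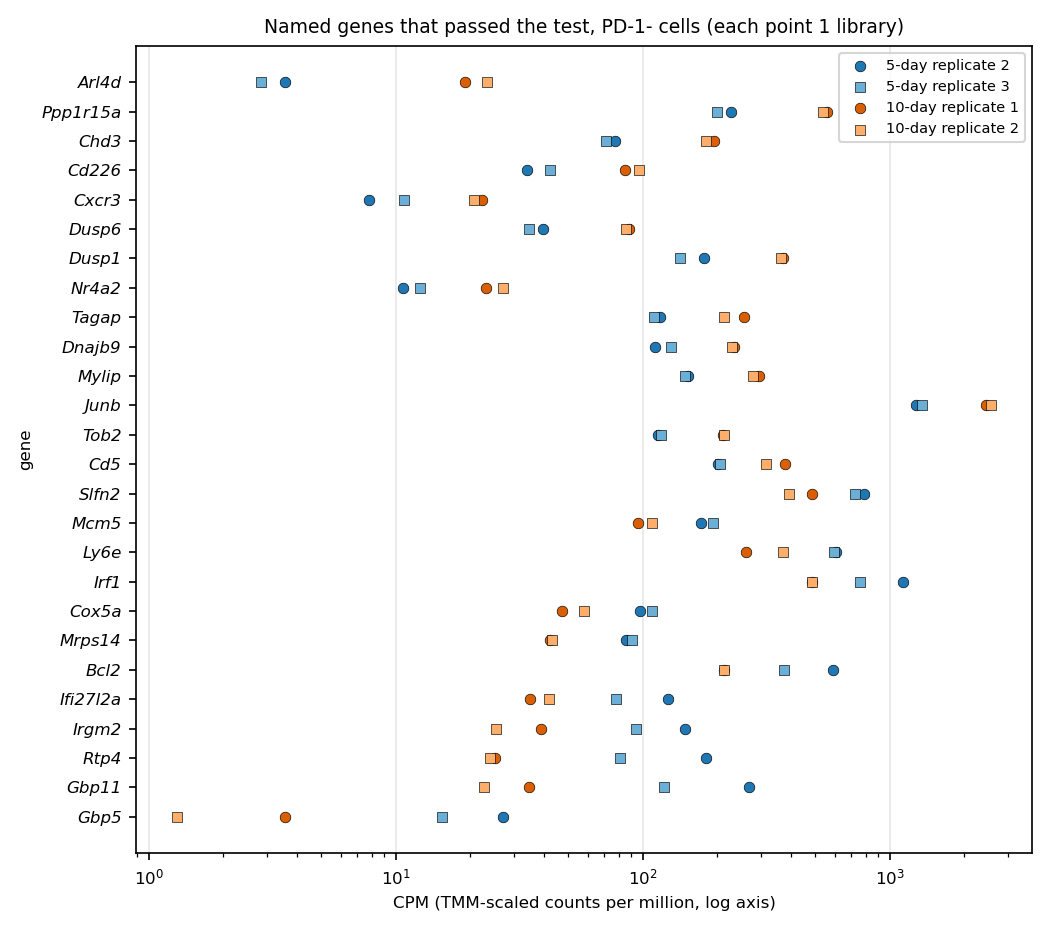
CPM (TMM-scaled, log axis) of 26 called genes chosen by the naming rule, 1 row per gene and 1 point per PD-1- library, ordered by log2 fold change. In every row both 10-day libraries (orange) lie on one side of both 5-day libraries (blue), and Irf1, Bcl2, Rtp4 and Gbp11 show a wide gap between the 5-day libraries.

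Interferon-inducible GTPases of the list accounted for 3 of the 14 called lower genes. Of the 17 on the list, 16 were tested, and Irgm2, Gbp5 and Gbp10 fell, 0 rose and 13 did not pass the adjusted test. All 16 had a log2 fold change below 0 (50.9% of all genes did), all 16 had both 10-day libraries below both 5-day libraries (20.7% of all genes did) and 15 reached an unadjusted p below 0.05 in that direction (6.00% of all genes). The median of the list was -1.85. Its 17 genes summed to 7561, 3458, 2256 and 1610 CPM by library total, so the 5-day libraries differed from each other by more than 5-day replicate 3 differed from 10-day replicate 1. Without 5-day replicate 2, the highest library, the median was -1.06, with 16 tested members below 0 and 10 at an unadjusted p below 0.05. Without the male library the median was -2.29 and 12 members were called lower, whereas 1 was called without 10-day replicate 1 and 0 without 10-day replicate 2. The macrophage genes Marco, Cd5l and C1qb, given with the markers of other cells, were also seen mainly at 5 days while Cd68 of that list had the opposite order, and their part in these values was not tested.

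Irgm2, an immunity-related GTPase that regulates the others (chr11:58199618-58222782, plus strand), had 148, 93.7 and 38.9, 25.4 CPM. Both 5-day libraries were above both 10-day libraries (-1.89 ± 0.28, edgeR adjusted p = 0.00979). Gbp5, a guanylate-binding protein that promotes inflammasome assembly (chr3:142493978-142522344, plus strand), had 27.2, 15.3 and 3.56, 1.30 CPM, from 84, 27, 11 and 2 counts (-2.97 ± 0.53, edgeR adjusted p = 0.0265). Gbp10 had 113, 16, 4 and 2 counts (-4.12 ± 0.78, edgeR adjusted p = 0.0321). The last value rests mainly on 5-day replicate 2, and without it the adjusted test was not passed. Gbp11, annotated as a polymorphic pseudogene on the same chromosome as Gbp10 (chr5:105323042-105346472, minus strand) and outside the list, had 268, 122 and 34.7, 22.8 CPM (-2.74 ± 0.36, edgeR adjusted p = 0.00979). The Gbp genes of chromosome 5 are close paralogs and Irgm2 overlaps Igtp on the same strand, and how shared reads were counted is not known, so the split among them is uncertain. The members nearest to the adjusted threshold without passing it were Tgtp1 (128, 47.7 and 15.5, 9.76 CPM, edgeR adjusted p = 0.0629) and Irgm1 (638, 301 and 135, 112 CPM, edgeR adjusted p = 0.0891). The most abundant members, Ifi47, Igtp, Gbp4 and Gbp2, also missed it (edgeR adjusted p = 0.221, 0.413, 0.328 and 0.405).

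**Figure D3:**
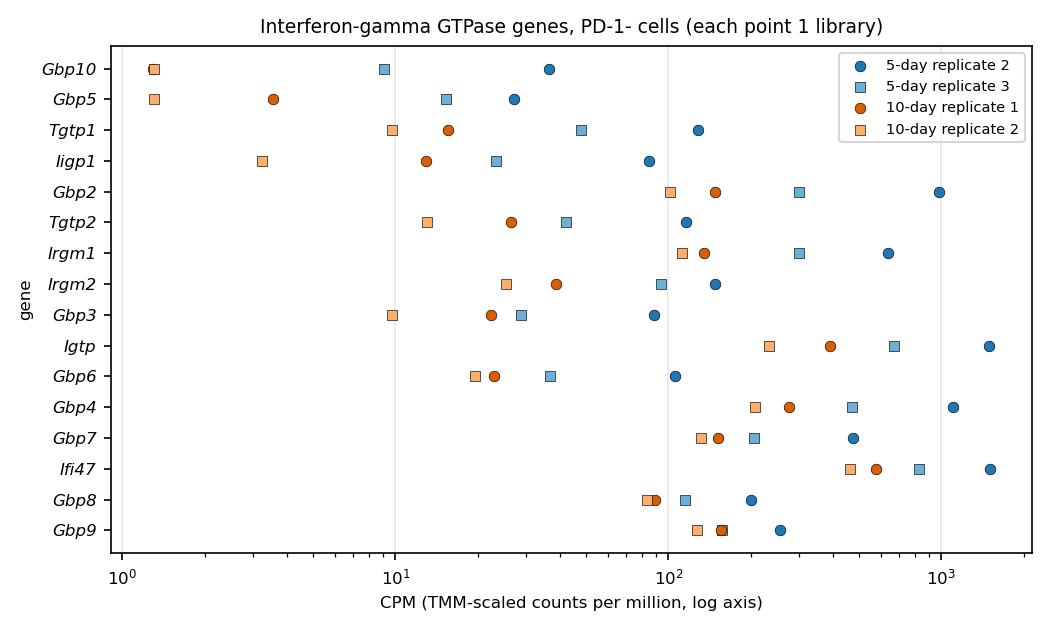
CPM (TMM-scaled, log axis) of the 16 tested interferon-gamma GTPase genes, 1 row per gene and 1 point per PD-1- library, ordered by log2 fold change. The 5-day points (blue) lie to the right of the 10-day points (orange) in each row, barely so for Gbp9, and 5-day replicate 2 is the rightmost point in each.

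Promoters of Irgm2, Gbp5 and Irf1 are shown because they hold the sites through which interferons are known to act. Capitals mark matches to the core of the interferon-stimulated response element (GAAA and GAAA with any 2 bases between) and to the gamma-activated site (TTCNNNGAA), both searched on both strands, in RefSeq sequences of GRCm38.p6 with the same 300-base window. The positions are chr11:58214727-58215026 for Irgm2, chr3:142496684-142496983 for Gbp5 and chr11:53769764-53770063 for Irf1, all on the plus strand.
Irgm2: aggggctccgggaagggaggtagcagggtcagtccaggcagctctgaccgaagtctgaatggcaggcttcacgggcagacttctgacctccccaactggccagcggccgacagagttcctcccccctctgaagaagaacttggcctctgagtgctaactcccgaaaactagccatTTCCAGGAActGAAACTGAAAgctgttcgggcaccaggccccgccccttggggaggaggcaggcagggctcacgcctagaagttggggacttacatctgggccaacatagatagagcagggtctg
Gbp5: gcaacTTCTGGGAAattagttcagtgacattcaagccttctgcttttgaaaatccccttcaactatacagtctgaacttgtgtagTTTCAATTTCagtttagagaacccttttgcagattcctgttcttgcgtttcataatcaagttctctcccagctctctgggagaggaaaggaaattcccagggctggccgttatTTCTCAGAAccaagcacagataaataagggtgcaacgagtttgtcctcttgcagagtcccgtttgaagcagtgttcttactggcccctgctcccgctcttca
Irf1: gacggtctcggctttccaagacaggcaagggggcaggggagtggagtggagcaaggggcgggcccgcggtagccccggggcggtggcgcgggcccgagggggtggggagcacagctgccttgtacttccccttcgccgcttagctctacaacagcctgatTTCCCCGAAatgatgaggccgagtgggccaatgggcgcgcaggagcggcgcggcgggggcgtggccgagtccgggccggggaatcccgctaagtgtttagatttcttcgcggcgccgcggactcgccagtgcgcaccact

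Irgm2 holds a gamma-activated site at -75 to -67 and a response element core at -64 to -55, which do not overlap. Gbp5 holds the core at -165 to -156 and gamma-activated sites at -245 to -237 and -52 to -44, and Irf1 a gamma-activated site at -90 to -82. The core occurred in 9 of the 10 listed GTPase genes with a promoter entry and in 19 of 30 type I interferon genes, against 3.95% of the 8355 tested genes with an entry and 3.44% of all promoters. The gamma-activated site occurred in 6 of the 10, against 8.34% of tested genes and 8.30% of all promoters. In the called lower genes the gamma-activated site occurred in 4 of 8 with an entry, among them the replication gene Mcm5. In the called higher genes it occurred in 0 of 13. The core occurred in 2 of those 8 lower genes and in 1 of those 13 higher genes, Ppp1r15a. A gene counts where any of its annotated starts has a match, and the lists are made of interferon targets, so their share is a description of the lists.

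Irf1, the interferon-induced transcription factor that acts on MHC class I genes (chr11:53770014-53778374, plus strand), had 1128, 755 and 483, 487 CPM (-0.96 ± 0.17, edgeR adjusted p = 0.0214). The 10-day libraries were nearly equal and the 5-day libraries apart, and the call was lost without 5-day replicate 2 as it was without either 10-day library. Genes of the type I interferon response included 2 called members. Of 41 tested, Rtp4 and Ifi27l2a fell, 0 rose and 39 did not pass the test. Rtp4, an interferon-induced protein of the receptor-transporter family, had 180, 80.6 and 25.3, 24.1 CPM (-2.41 ± 0.35, edgeR adjusted p = 0.00979). Ifi27l2a had 126, 77.8 and 35.0, 41.6 CPM (-1.44 ± 0.24, edgeR adjusted p = 0.0126). In both genes the ages did not overlap. The list had a median of -0.85, 39 members below 0 and 25 at an unadjusted p below 0.05 downward (0 upward). Without 5-day replicate 2 the median was -0.30 and 6 members remained at that level downward, with 2 upward. With the male library left out instead, the median was -1.17 and 29 members were at that level downward, with 16 members past the adjusted threshold. Without 10-day replicate 1 or 2, 18 and 13 were at that level downward and 0 were called.

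Further genes of that list varied in size of change, and 2 of the 41, Mx1 and Rsad2, lay above 0. Parp14 had -1.08 ± 0.24 and Bst2, the virus tether, -1.15 ± 0.28 (edgeR adjusted p = 0.122). The classic antiviral genes Ifit2 (-0.02 ± 0.31), Mx2 (-0.13 ± 0.88) and Rsad2 (0.40 ± 0.77) had changes smaller than their standard errors, and Mx1 had 4, 4, 17 and 1 counts. Ly6e, an interferon-inducible surface antigen, fell from 605 and 594 to 262 and 371 CPM (-0.93 ± 0.16, edgeR adjusted p = 0.0152). Slfn2, a Schlafen protein that keeps T cells quiescent, fell from 784 and 723 to 486 and 391 CPM (-0.78 ± 0.16, edgeR adjusted p = 0.0443). The 5-day replicates of these last genes were close to each other, but Slfn2 kept the call in only 5 of 13 alternative settings.

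MHC class I and antigen processing genes included 0 called members of 21 tested. Their median was -0.31, with 9 at an unadjusted p below 0.05 downward and 2 upward. Without the male library the median was -0.66, with 13 lower at that level and 7 called lower, and without 5-day replicate 2 it was -0.12, with 4 lower. B2m, the light chain of MHC class I, had 3747, 3722 and 2050, 2534 CPM (-0.70 ± 0.15, edgeR adjusted p = 0.0691). The immunoproteasome subunit Psmb8 (-0.80 ± 0.17, edgeR adjusted p = 0.0629) and the proteasome activators Psme1 (-0.74 ± 0.15) and Psme2 (-0.87 ± 0.20) had values of the same sign. The non-classical genes H2-Q6 and H2-Q7 went the other way, with 9.40, 10.8 and 18.5, 37.7 CPM (1.42 ± 0.31, edgeR adjusted p = 0.0765) and 40.8, 32.9 and 56.3, 59.2 CPM (0.63 ± 0.20, edgeR adjusted p = 0.251). Counts of the H2-Q genes may be shared among these near-identical copies.

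**Figure D4:**
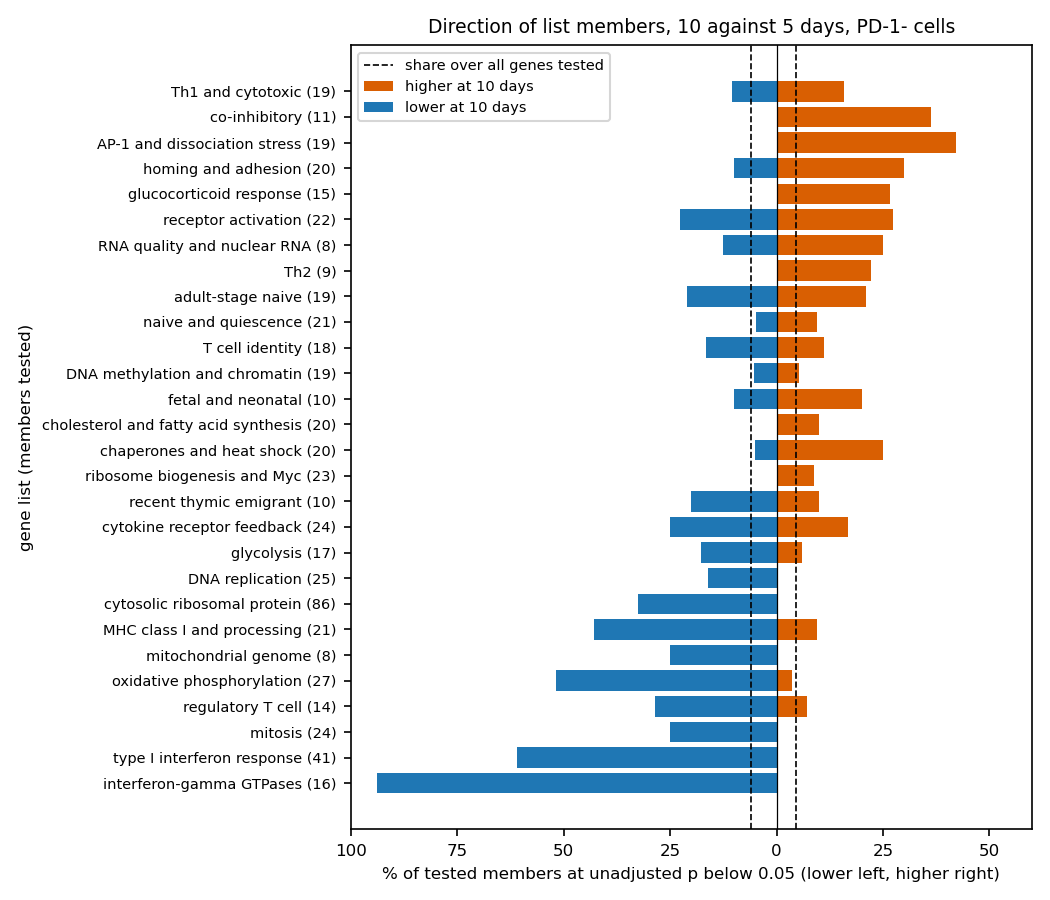
Share of the tested members of each programme list with at least 8 members tested (number tested in parentheses) at an unadjusted p below 0.05, lower at 10 days to the left in blue and higher to the right in orange, ordered by median log2 fold change. The dashed lines mark the shares over all tested genes, 6.00% lower and 4.61% higher. The interferon-gamma GTPases (15 of 16 lower) and the AP-1 list (8 of 19 higher) are the longest bars on their sides.

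Genes of survival and cytokine signalling were mixed. Bcl2, which protects lymphocytes from apoptosis downstream of interleukin-7, fell from 590 and 372 to 214 and 214 CPM (-1.17 ± 0.21, edgeR adjusted p = 0.0316) and was the only called member of 24 in the cytokine feedback list. It lost the call without 5-day replicate 2 and without either 10-day library. Socs1, the inhibitor of JAK kinases that interferon-gamma induces, had 66.1, 32.4 and 15.5, 17.6 CPM (-1.60 ± 0.36, edgeR adjusted p = 0.0695). The interleukin-7 receptor chain Il7r had 240, 336 and 470, 399 CPM (0.60 ± 0.18, edgeR adjusted p = 0.221). Of 15 tested glucocorticoid-response genes 1 rose, Dusp1, 0 fell, and Sgk1, a kinase on that list, had 131, 131 and 237, 182 CPM (0.69 ± 0.19, edgeR adjusted p = 0.16).

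The receptor activation list did not move as a block. Of its 22 tested genes Nr4a2 rose, 0 fell, and at an unadjusted p below 0.05 there were 6 higher and 5 lower, with a median of 0.18. Among the higher were Tnf (29.5, 24.4 and 61.2, 54.6 CPM, edgeR adjusted p = 0.102), Nr4a1 (0.61 ± 0.17) and Cd44, the memory marker (38.2, 39.7 and 59.3, 61.1 CPM, edgeR adjusted p = 0.156). Among the lower were the transcription factors Irf4 (227, 153 and 69.3, 68.3 CPM, edgeR adjusted p = 0.0691) and Irf8 (90, 39, 40 and 11 counts, edgeR adjusted p = 0.0765) and the interleukin-2 receptor chain Il2ra, at 27, 5, 1 and 4 counts. Neither Cd69 (0.13 ± 0.17) nor Myc (0.01 ± 0.23) differed by more than its standard error. Of 11 co-inhibitory genes tested 0 were called, and 4 were higher and 0 lower at an unadjusted p below 0.05, with a median of 0.67. With only the PD-1- libraries fitted, 7 of them passed the filter, 3 were higher at that level and the median was 0.66. With a mean count of at least 50 required, 3 were left, with a median of 0.49, so many members rest on few counts. Tox, a factor of thymic selection and of exhausted cells, had 56.1, 50.5 and 77.4, 87.2 CPM (edgeR adjusted p = 0.21), while Pdcd1, by which the cells were sorted, is no finding here.

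Naive T cell genes included 1 called member of 21 tested, Slfn2, which fell, and the median of the list was 0.10. The lymph node receptor Ccr7 had 1968, 2023 and 1597, 1360 CPM (-0.43 ± 0.22, edgeR adjusted p = 0.543). Igfbp4, which naive cells make and which binds insulin-like growth factors, had 1937, 1860 and 1711, 1544 CPM without a call (-0.22 ± 0.31). A p that misses the threshold does not show that these levels were equal.

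Stage-specific genes included no called member. Of 10 tested fetal and neonatal genes, Igf2bp3, an RNA-binding protein of fetal cells, had 102, 103 and 112, 103 CPM (0.07 ± 0.19). Lin28b, which maintains fetal lymphopoiesis, had 8, 7, 0 and 1 counts, and Igf2bp2, of the same family as Igf2bp3, had 3, 0, 18 and 10 counts. The Lin28b libraries did not overlap between the ages, but the depth allows no firm fold (edgeR adjusted p = 0.396). Among recent thymic emigrant genes, Ccr9, the gut-homing receptor of thymocytes and emigrants, had 92.3, 131 and 58.3, 57.9 CPM (-0.94 ± 0.28, edgeR adjusted p = 0.195). Ikzf2, the Helios factor, had 61, 44, 26 and 20 counts (-1.11 ± 0.27, edgeR adjusted p = 0.122). Neither of these overlapped between the ages. Dntt had 8, 3, 4 and 11 counts and Rag1 11, 1, 7 and 2, with no order by age. Of 19 genes of adult-stage naive cells, Ly6c1 had 143, 118 and 49.2, 61.8 CPM (-1.24 ± 0.41, edgeR adjusted p = 0.31), and its neighbour Ly6c2 had the opposite sign, 7.78, 18.2 and 23.3, 51.4 CPM (1.55 ± 0.43, edgeR adjusted p = 0.195).

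Helper, homing and regulatory genes added 1 called gene, Cxcr3, which is on the Th1 and homing lists. Of 19 tested Th1 and cytotoxic genes 3 were higher and 2 lower at an unadjusted p below 0.05, and the list median of 1.04 included many genes of few counts. Tbx21, the T-bet factor of Th1 cells, had 2.27, 3.41 and 6.15, 17.6 CPM (edgeR adjusted p = 0.156), and Stat4, which relays interleukin-12, had 79.4, 70.4 and 60.2, 46.8 CPM (edgeR adjusted p = 0.394). Of 9 tested Th2 genes 0 were called, and Gata3, the factor of Th2 cells, overlapped between the ages at 183, 145 and 163, 219 CPM. Among 14 regulatory T cell genes 0 were called, 4 were lower and 1 higher at that level, and Gpr83 had 143, 78.4 and 50.2, 54.0 CPM (-1.10 ± 0.29, edgeR adjusted p = 0.153). The 20 homing and adhesion genes held 6 higher and 2 lower at that level. The integrin chain Itgb2 had 446, 433 and 610, 576 CPM (edgeR adjusted p = 0.243) and the selectin ligand Selplg 911, 914 and 707, 629 CPM (edgeR adjusted p = 0.31), both without overlap.

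Chaperone and glycolysis genes included 0 called members, of 20 and 17 tested. The heat shock gene Hspa1a had 14.6, 7.38 and 31.7, 34.5 CPM (1.53 ± 0.42, edgeR adjusted p = 0.166), and 5 chaperone genes were higher and 1 lower at an unadjusted p below 0.05. Lactate dehydrogenase A (Ldha) had 1194, 1208 and 953, 952 CPM (-0.33 ± 0.12, edgeR adjusted p = 0.323). It fell by 1.63 on the log2 scale in PD-1+ cells, and the difference was called (edgeR adjusted p = 0.00088), as it was for 7 of the 17 glycolysis genes.

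Growth and respiration genes were mostly below 0, with single calls. Cox5a, a subunit of cytochrome c oxidase, fell from 97.5 and 109 to 47.0 and 57.9 CPM (-0.99 ± 0.19, edgeR adjusted p = 0.0283) and was the only called member of 27 oxidative phosphorylation genes. The list had a median of -0.48, with 14 members lower and 1 higher at an unadjusted p below 0.05. Without the male library its median was -0.29, 7 members were lower at that level (8 without 10-day replicate 1), and Cox5a was not called. Mrps14, a protein of the mitochondrial ribosome, fell from 85.9 and 90.9 to 42.1 and 42.9 CPM (-1.05 ± 0.21, edgeR adjusted p = 0.0408), a call that was lost without any 1 of the 4 libraries. Of 86 cytosolic ribosomal protein genes 0 were called, although 82 lay below 0 and 28 were lower at an unadjusted p below 0.05 (median -0.30), and without the male library 4 were lower at that level, as were 4 without 10-day replicate 1. Mitochondrial transcripts took 1.84, 2.66, 1.81 and 1.97% of the counts, highest in that library.

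Proliferation genes were highest in 5-day replicate 3. Mcm5, part of the replicative helicase, fell from 171 and 192 to 95.5 and 109 CPM (-0.84 ± 0.17, edgeR adjusted p = 0.0418) and was the only called gene among 25 of DNA replication, a call also lost without any 1 of the 4 libraries. The 24 mitosis genes summed to 2926, 5257, 2227 and 3411 CPM by library total, so the ages overlapped. Their median was -0.59 with 0 called, and 6 were lower at an unadjusted p below 0.05, but that number was 0 without the male library, 0 without 10-day replicate 1, 16 without 5-day replicate 2, with 6 past the adjusted threshold, and 17 without 10-day replicate 2. In bulk libraries, fewer cells of a kind and less RNA per cell cannot be told apart.

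Markers of other cell types were sparse, and some differed in counts between the ages. The macrophage and Kupffer cell genes Marco (14, 38, 0 and 1 counts), Cd5l (10, 10, 0 and 0) and C1qb (8, 17, 0 and 0) were seen almost only at 5 days. Cd68, a lysosomal protein of the same list, had the opposite order, with 61, 45, 113 and 69 counts (0.85 ± 0.31, edgeR adjusted p = 0.312). Against a floor of 3 counts over both 10-day libraries, Cd5l was at least 6.07-fold and C1qb at least 7.59-fold lower at 10 days, but neither passed the test (edgeR adjusted p = 0.0667 and 0.0838). The whole list of 14 summed to 36.8 and 93.1 CPM by library total at 5 days and 44.1 and 51.6 at 10 days, which overlap. That overlap rests on Cd68, which made up 113 of 125 and 69 of 76 list counts at 10 days. At 5 days it made up 61 of 111 and 45 of 159. The 12 NK and innate lymphoid genes summed to 4.31, 53.3, 79.1 and 63.1 CPM by library total, lowest in 5-day replicate 2. Klrb1c, the NK1.1 antigen, had 1, 3, 30 and 14 counts (edgeR adjusted p = 0.166), and the killer cell receptor gene Klra8 was at 0 in all 4 libraries. Hepatocyte genes summed to 48.0, 47.5, 37.4 and 35.3 CPM by library total and neutrophil genes to 0.662, 2.34, 1.41 and 0.679. No gene of the 11 lists of other cells was called, and the part of such cells in the age differences, including those of interferon genes, was not tested.

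The age effect differed between the populations for part of the called genes. Over all tested genes, the difference between the age effects of PD-1- and PD-1+ cells was called for 244 genes (2.12%), and the age effect within PD-1+ cells for 1651 (14.4%). Of the 31 genes called in PD-1- cells, 15 were called in the same direction in PD-1+ cells and 1 in the opposite direction. Ppp1r15a and Dusp1 had closely similar values in PD-1+ cells (1.18 ± 0.15 and 1.39 ± 0.15), and the difference was not called for either (edgeR adjusted p = 0.772 and 0.743). For 10 of the 31 the difference itself was called. The PD-1- values by which the 31 were chosen also enter the difference, so this share cannot be set against the 2.12%. Tagap was the gene that rose in PD-1- and fell in PD-1+ cells (-0.95 ± 0.18 in PD-1+, difference 2.00 ± 0.25, edgeR adjusted p = 0.000521).

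Among the interferon genes called in PD-1- cells, Irgm2, Gbp5, Gbp11 and Ifi27l2a were called for the difference. By list, the difference was called for 4 of 16 tested GTPase genes and 6 of 41 tested type I interferon genes. Irgm2 had 36.5, 34.4 and 38.8, 29.2 CPM in PD-1+ cells (-0.06 ± 0.29, difference -1.83 ± 0.40, edgeR adjusted p = 0.0273). At 10 days the PD-1- libraries lay within the range of the PD-1+ ones or next to it, and at 5 days they were higher. Gbp5 had 52.0, 43.9 and 60.5, 28.8 CPM in PD-1+ cells, above all 4 PD-1- libraries (difference -2.87 ± 0.66, edgeR adjusted p = 0.0373). B2m, not called in PD-1- cells, rose in PD-1+ cells (0.48 ± 0.15, edgeR adjusted p = 0.0442), and the difference was called (-1.19 ± 0.21, edgeR adjusted p = 0.00928). Irf1, Gbp10 and Rtp4 missed the threshold for the difference (edgeR adjusted p = 0.0688, 0.0805 and 0.118). Ly6e fell in PD-1+ cells as well (-0.55 ± 0.15, edgeR adjusted p = 0.0257), and its difference was not called (edgeR adjusted p = 0.444). Tgtp1, not called in PD-1- cells, also fell in PD-1+ cells (-2.07 ± 0.60, edgeR adjusted p = 0.0439, and 0.763 for the difference). Within PD-1+ cells, 2 listed GTPase genes were called higher and 1 lower, and 6 type I interferon genes higher and 1 lower.

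**Figure D5:**
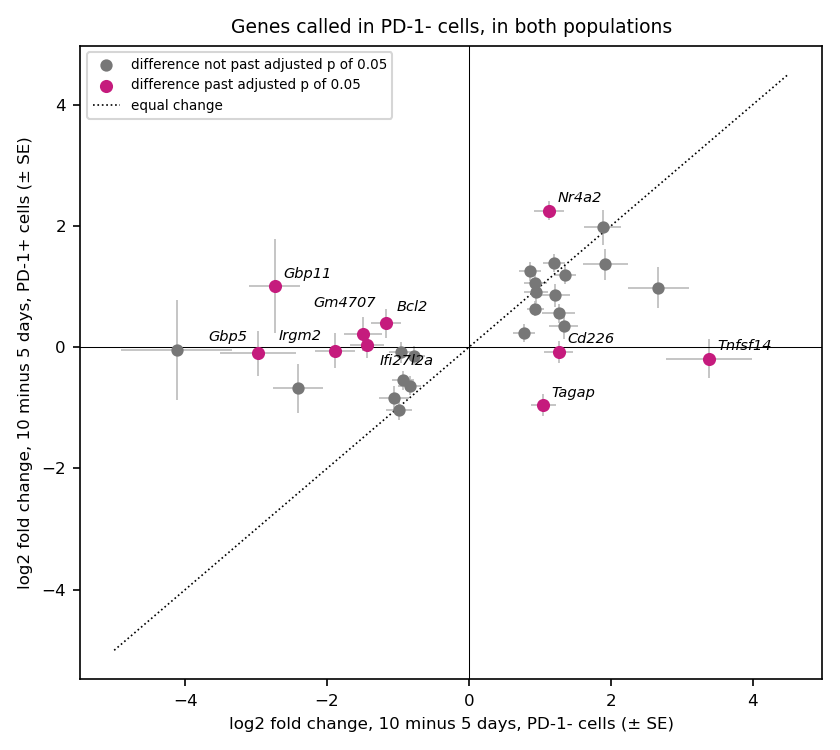
Log2 fold change of 10 minus 5 days (± SE) of the 31 called genes in PD-1- cells (x axis) and in PD-1+ cells (y axis), 2 against 2 libraries in each. The 10 genes in pink differed between the populations with an adjusted p below 0.05, the dotted line marks equal change, and the interferon genes among them lie near or above 0 on the y axis.

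Several genes outside the 31 differed in their age effect, with the larger change in PD-1+ cells. Tox rose in PD-1+ cells by 2.57 ± 0.18, against 0.61 ± 0.19 in PD-1- cells (edgeR adjusted p = 0.000808 for the difference), and H2-Q7 by 4.36 ± 0.22 against 0.63 ± 0.20 (edgeR adjusted p = 3.22e-06 for the difference). Izumo1r, the folate receptor 4 of regulatory and anergic T cells, rose by 2.29 ± 0.17 in PD-1+ cells against -0.44 ± 0.17 in PD-1- cells (edgeR adjusted p = 7.63e-06 for the difference).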

How the data were processed

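Libraries of 1000 sorted cells were made from RNA primed with anchored oligo(dT), tagmented with Nextera XT and read as paired 25-base reads, per the labels' protocols. The authors deposited 1 table of raw counts per gene symbol, 1 column per library. The submitters' processing notes name STAR 2.5.4, featureCounts and mm10, while the annotation, strand and multimapping settings were not given in these sources. All 8 columns were matched by title, 0 left over. Genes were kept by filterByExpr, scaled by TMM and fitted in edgeR 4.0.16 (R 4.3.3) with robust quasi-likelihood over 4 groups of 2 libraries, with all 8 libraries sharing the estimate of spread. Contrasts were 10 minus 5 days in PD-1- cells, 10 minus 5 days in PD-1+ cells, and the difference between these age effects. Adjustment was Benjamini-Hochberg over all tested genes, at 0.05. SE is |log2 fold change| over the square root of F. CPM are TMM-scaled, and list sums are CPM by library total, without TMM. Replicates of an age differed beyond counting error (chi-square per degree of freedom 6.50 and 6.30), and were kept as 2 samples. The depth leaves genes with a few counts imprecise.

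Members and lists (41, of which 11 of other cells) were chosen with earlier results of these data known. Lists are described by counts and medians without a set test. Named genes were the up to 15 largest changes per direction among called genes with mean log2 CPM of at least 3, no overlap, and no unnamed or sex-linked genes, up to 5 genes with the smallest p per list, and a fixed set of markers. Other genes named (among them Tnfsf14, Gm45205, Gm4707, Fos, Jun and less changed list members) were chosen after their values were seen. Gene positions are from GENCODE M21 and promoters from RefSeq, both on GRCm38, the assembly of mm10; 21 of the 31 called genes had a promoter entry. Results of some genes are left out here. The edgeR fit was also run on simulated counts with known changes, and the outcome is not given here. Those counts were drawn independently for each gene and library, so shifts shared by many genes of a library were absent. Alternatives were the PD-1- libraries alone, RLE and upper-quartile scaling, no and stricter filters (mean count of 50), DESeq2 1.42.0, limma-voom 3.58.1 with and without a replicate block, non-robust dispersion, and each PD-1- library left out.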

Additional observations from a re-analysis of the deposited data

Results flagged for a closer look

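Of the 31 genes called in PD-1- cells, 10 had an age effect that differed from that in PD-1+ cells by a test of the difference (edgeR quasi-likelihood, adjusted p below 0.05 over all tested genes). The PD-1- values that chose the 31 also enter this test, so it is not independent of that choice. The difference, PD-1- minus PD-1+ on the log2 scale, was above 0 for Tnfsf14 (3.57 ± 0.70), Tagap (2.00 ± 0.25) and Cd226 (1.34 ± 0.27). It was below 0 for Gbp11 (-3.75 ± 0.83), Gbp5 (-2.87 ± 0.66), Irgm2 (-1.83 ± 0.40), the unnamed model Gm4707 (-1.72 ± 0.39), Bcl2 (-1.56 ± 0.32), Ifi27l2a (-1.48 ± 0.33) and Nr4a2 (-1.13 ± 0.27). Nr4a2 rose in both populations, more in PD-1+ cells (2.25 ± 0.16). Tnfsf14 had 46.8, 42.0, 43.5 and 34.4 CPM in the PD-1+ libraries, above all PD-1- libraries. Bcl2 had 52.0, 35.8, 52.7 and 62.2 CPM in the PD-1+ libraries, below all PD-1- libraries.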

How the results depend on the processing

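Of the 31 calls (17 higher, 14 lower), 3 held under all 13 alternatives and 11 under at least 10. None of the 31 changed direction. Fitting only the PD-1- libraries gave 7 higher and 3 lower, no filter 64 and 116, DESeq2 31 and 44, and non-robust dispersion 11 and 8. Leaving out 1 library at a time gave 3 to 30 higher and 1 to 60 lower. For the difference between the populations' age effects (106 above and 138 below 0), leaving out 1 library gave 44 to 102 above and 57 to 153 below 0. For the number of genes called in PD-1- cells, other scalings, the stricter filter and limma-voom stayed within 1.5 times. For the difference, calls were not counted under RLE scaling, no or stricter filters, non-robust dispersion or limma-voom without a block. No PD-1+ library was left out. The causes were not tested beyond the number of genes or libraries each setting uses. Over the alternatives, 170 other genes were called at least once.

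With a replicate block in limma-voom, 13 genes were higher and 14 lower, against 13 and 13 without it. The ages share only number 2, and deviations of PD-1- and PD-1+ libraries with the same number correlated weakly (0.094 at 5 days, 0.114 at 10 days). The number was not used in the reported fit, which takes all libraries as independent. At 5 days the PD-1- and PD-1+ libraries matched in sex by number, with 672 and 601 Y-linked counts in replicate 3 and 0 in both of replicate 2. Whether libraries of 1 number share a source is not in the labels. Depth limits genes such as Tnfsf14, Gbp10 and Lin28b, which had few counts at 1 of the ages.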
